A study of Mus musculus with 3 samples.

Results

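The EGF family ligands are secreted growth factors that share a fold held by cysteine bridges. They are made as membrane-anchored precursors, are cut loose by metalloproteinases of the ADAM family, and bind receptors of the ErbB family on the same cell or its neighbours, which switches on the RAS-ERK relay. In the liver they are known as mitogens of hepatocytes and of biliary epithelium. Here 8 genes were taken by symbol, *Areg*, *Ereg*, *Hbegf*, *Tgfa*, *Btc*, *Egf*, *Epgn* and *Nrg1*, and their members were the probes whose platform symbol is in that set. These were 7 of the 23473 gene probes, 1 probe for each of 7 genes, among 19321 genes named on the array. No probe was matched to *Areg* (amphiregulin), which is not analysed here.

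Mouse intrahepatic biliary epithelial cells (BECs) from female BALB/c mice aged 8 weeks were cultured under less than confluent conditions, and cellular senescence was induced in 2 ways. The first group was kept in serum-depleted media and the other was given GCDC (glycochenodeoxycholic acid, a conjugated bile acid) at 200 μM. The labels give 4 to 7 days for both, and the text of the study gives 7 days for the arrays. The control BECs received neither, and the labels give Nu-serum, EGF, insulin and forskolin as supplements of the culture medium. Thus the recombinant ligand EGF itself was part of the culture, and whether the serum-depleted medium kept it is not given in the sources used here. RNA pooled from 2 independent experiments was hybridised to 1 one-colour microarray per condition. With 1 array per condition no difference below has a replicate check and no p-value was computed. The precision is limited by the number of arrays. In these bulk RNA samples, fewer cells that express a gene and less RNA per cell cannot be told apart.

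A level is the spot intensity above the mean of the blank spots, scaled so that the median of the valid probes of each array is 25. The limit for a valid probe was a signal over the blank mean by 2 SD of the blanks, which was met for 86.1% of gene probes in serum depletion, 87.9% in GCDC and 89.2% in control. Levels compare the same probe between arrays and not one gene with another. A gene is said to have risen or fallen where it moved past 2-fold against control. Of all probes valid on at least 1 array of a comparison, 13.4% rose and 11.3% fell in serum depletion (24.7% either way), and 13% rose and 8.77% fell in GCDC (21.7% either way). Of the markers of cholangiocytes, the epithelial cells of bile ducts, all 12 matched to a probe were valid on all 3 arrays, among them the keratins *Krt19*, *Krt7*, *Krt8* and *Krt18*. Their levels were not all steady. *Aqp1*, a water channel, was at 229 in serum depletion, 86.3 in GCDC and 776 in control, and *Prom1*, a marker of progenitor-like duct cells, was at 130 in serum depletion, 231 in GCDC and 671 in control, so both fell in both treatments. *Krt19* rose 2.06-fold in GCDC. Of the hepatocyte markers, 9 were valid on at least 1 array and *Ttr* rose, with a level of 288 in serum depletion, 50.4 in GCDC and 36.9 in control. *Fgb* was at 104 in serum depletion, 83.4 in GCDC and 55.5 in control, and *Alb* at 2.34, 3.44 and 3.66. The summed level of the hepatocyte markers was 698 in serum depletion, 430.0 in GCDC and 410 in control. The summed level of the endothelial markers was 85.8 in serum depletion, 92.5 in GCDC and 43.6 in control, that of the mesenchymal markers 97.8, 92.8 and 68.8, and that of the macrophage markers 102, 130 and 101. Such sums follow the brightest probes most. Among the endothelial markers this was *Kdr*, at 49.1 in serum depletion, 50.8 in GCDC and 20.4 in control. Among the hepatocyte markers it was *Ttr* in serum depletion. The part of these cells in the results below was not tested.

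The promoters of 4 of the measured ligands, *Tgfa*, *Epgn*, *Btc* and *Egf*, were taken from the RefSeq table of build GRCm38.p6. It gives 250 bases before and 50 after the start of a gene. *Hbegf*, *Ereg* and *Nrg1* are not among them, so no ligand that rose is shown. The promoters of *Tgfa* and *Epgn*, which fell in both treatments, and of *Btc*, which stayed within 2-fold, are shown. This sets ligands past 2-fold beside one short of it. *Epgn* lies at chr5:91027267-91027566 on the plus strand, *Btc* at chr5:91402945-91403244 on the minus strand and *Tgfa* at chr6:86194972-86195271 on the plus strand. Capitals mark matches, on either strand, to the core TGACG of the cAMP response element (CRE), the full CRE TGACGTCA, the AP-1 element TGACTCA or the TEAD element GGAATG. The full CRE holds the core on both of its strands.
Epgn: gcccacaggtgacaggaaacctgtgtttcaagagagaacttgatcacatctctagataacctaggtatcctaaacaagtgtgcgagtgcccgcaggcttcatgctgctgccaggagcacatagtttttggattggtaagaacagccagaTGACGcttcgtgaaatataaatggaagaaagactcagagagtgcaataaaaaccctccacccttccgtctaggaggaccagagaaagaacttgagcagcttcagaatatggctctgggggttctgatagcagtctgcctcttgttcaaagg
Btc: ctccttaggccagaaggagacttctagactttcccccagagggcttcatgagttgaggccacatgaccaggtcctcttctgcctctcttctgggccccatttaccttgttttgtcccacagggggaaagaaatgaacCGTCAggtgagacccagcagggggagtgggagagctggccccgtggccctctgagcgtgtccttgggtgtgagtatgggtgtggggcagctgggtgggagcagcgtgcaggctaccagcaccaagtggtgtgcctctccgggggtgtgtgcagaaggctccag
Tgfa: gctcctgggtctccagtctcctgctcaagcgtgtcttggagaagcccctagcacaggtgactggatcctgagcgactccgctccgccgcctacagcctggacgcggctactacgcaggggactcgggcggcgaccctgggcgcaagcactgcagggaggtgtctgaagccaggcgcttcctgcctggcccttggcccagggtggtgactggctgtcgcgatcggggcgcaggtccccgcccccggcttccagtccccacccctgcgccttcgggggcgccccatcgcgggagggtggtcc

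The *Epgn* and *Btc* windows each held 1 match to the CRE core and no other match, and the *Tgfa* window held none. The promoters of *Egf* held none either. Over all 32851 promoters of this length, 20.8% held the CRE core, 1.79% the full CRE, 5.20% the AP-1 element and 14.7% the TEAD element. These matches describe letters and not binding. The windows differ in base composition, with 47.3% G and C in *Epgn*, 60.3% in *Btc* and 70.7% in *Tgfa*.

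Of the 7 ligands measured, *Hbegf* rose in both treatments and *Tgfa*, *Epgn* and *Nrg1* fell in both. *Ereg* fell in serum depletion, just past 2-fold, and was above control in GCDC. *Btc* and *Egf* stayed within 2-fold of control in both. In counts, 1 of 7 rose and 4 of 7 fell in serum depletion, and 1 of 7 rose and 3 of 7 fell in GCDC. Of all probes, 13.4% rose and 11.3% fell in serum depletion, and 13% rose and 8.77% fell in GCDC. A rise in 1 of 7 is thus near the share of the array. Changes of the same direction in both treatments were found for 4 of the 7, against 16% of all probes (8.68% up and 7.28% down). The ratios of the treatments share the control array. The median log2 ratio of the ligands valid on both arrays was -0.85 in serum depletion (6 probes) and -0.70 in GCDC (7 probes), beside 0.16 and 0.23 over all probes. With *Epgn* at its bound the median in serum depletion was -1.01. After normexp and quantile normalization the medians were -0.33 and -0.12, and over the 6 ligands valid on all 3 arrays the GCDC median was -0.20.

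**Figure D1:**
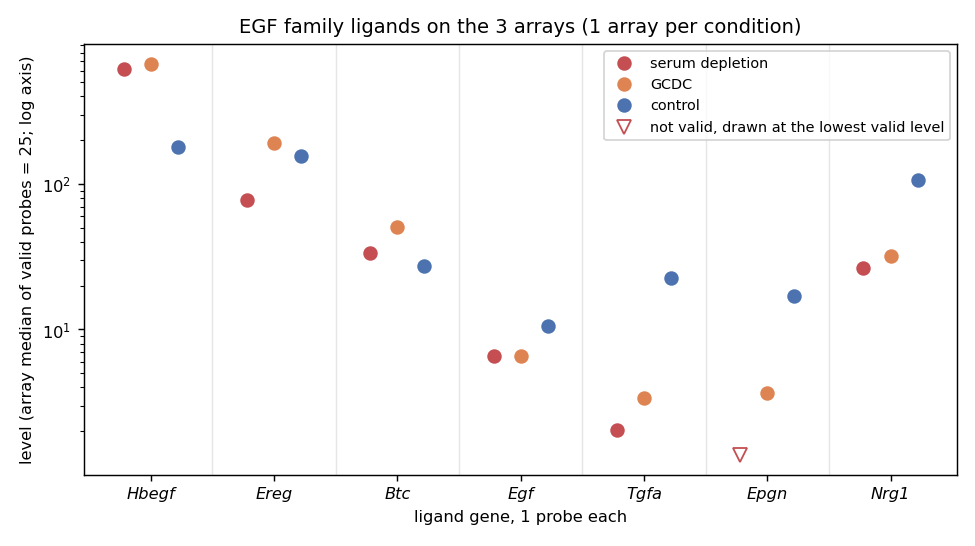
Levels of the 7 measured ligands on a log axis, with 1 point per array, serum depletion and GCDC to the left of control. *Hbegf* stands at 615 and 673 on the treated arrays, above 179 in control, while *Tgfa*, *Epgn* and *Nrg1* stand highest in control. The open triangle marks *Epgn* in serum depletion, which was not valid and is drawn at the lowest valid level of that array, 1.37; heights compare arrays within a gene only.

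Among the ligands that bind both EGFR and ErbB4, *Hbegf* encodes heparin-binding EGF-like growth factor. Its level was 615 in serum depletion, 673 in GCDC and 179 in control. Both treated arrays thus lay well above the control array and close to each other. Serum depletion gave a 3.43-fold rise and GCDC a 3.75-fold rise, and 3.10% and 1.61% of the compared probes had a higher ratio. It was the only one of the 7 ligands past 2-fold upwards in either treatment. Signals this bright, at least 358 SD of the blanks above them, leave a range of 1.77 to 1.79 for the log2 ratio in serum depletion and 1.90 to 1.92 in GCDC when each signal is moved by 2 SD of the blanks. This range covers the scatter of the blanks alone.

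*Ereg* encodes epiregulin, a broad ErbB ligand. Its level was 77.1 in serum depletion, 192 in GCDC and 156 in control. The serum-depleted array was the low one, and the GCDC array lay slightly above control. The log2 ratio was -1.01 in serum depletion, with a range of -1.05 to -0.98 from the blanks, so that it lies on the threshold, and 0.30 in GCDC. It was -0.86 when arrays were scaled on their shared valid probes and -0.80 after normexp and quantile normalization, short of 2-fold in both cases, and also just short of it with the mean of all blanks subtracted. Without scaling the GCDC ratio turned to -0.35. Relative to GCDC, *Ereg* was lower in serum depletion by 1.31 on the log2 scale. Between the treated arrays 6.04% of all probes differed by over 2-fold, either way.

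*Btc* encodes betacellulin, known as a growth factor of pancreatic beta cells. Its level was 33.6 in serum depletion, 50.5 in GCDC and 27.5 in control. Both treated arrays were above control, 1.22-fold for serum depletion and 1.84-fold for GCDC, which is short of 2-fold. The direction in serum depletion turned to -0.15 with no scaling between arrays.

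Of the ligands that bind EGFR, *Tgfa* encodes transforming growth factor alpha, the classical autocrine ligand of epithelial cells. Its level was 2.05 in serum depletion, 3.40 in GCDC and 22.6 in control. The signal of the treated arrays was close to the blanks, at 3.0 and 5.8 of their SDs, while the control signal was 45.2 SD above. The log2 ratios of -3.47 and -2.73 were the lowest among the ligands valid on both arrays, and 0.419% and 0.612% of the compared probes had a lower one. Because the treated signals are small, the blanks alone leave a range of -5.11 to -2.66 in serum depletion and -3.41 to -2.24 in GCDC. After normexp background correction with an offset, together with quantile normalization, the ratios were -0.55 and -0.51 and no longer past 2-fold.

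*Epgn* encodes epigen, a low-affinity EGFR ligand of epithelia. It was not valid in serum depletion, at 0.7 SD of the blanks above their mean, and had a level of 3.65 in GCDC and 17.1 in control. Serum depletion was therefore at least 12.5-fold lower than control, taking the lowest valid level of that array, 1.37, for *Epgn*. In GCDC the log2 ratio was -2.23, with a range of -2.87 to -1.74 from the blanks, and 1.38% of probes had a lower one. Between the treated arrays, the same substitution gives a bound of 2.67-fold lower in serum depletion than in GCDC. The GCDC signal lay only 6.2 SD of the blanks above them, and this bound leaves out their scatter. After normexp with quantile normalization the GCDC ratio was -0.38, and the bound in serum depletion did not reach 2-fold.

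*Egf* encodes epidermal growth factor, the name-giving member. The array reads the transcript of the mouse gene and not the EGF in the medium. Its level was 6.57 in serum depletion, 6.53 in GCDC and 10.6 in control. Both treated arrays were lower than control and nearly equal, with log2 ratios of -0.69 and -0.70. The control signal was 21.2 SD of the blanks above them, and the range from the blanks, -1.16 to -0.27 in serum depletion and -1.11 to -0.32 in GCDC, takes in the 2-fold line. Without scaling the ratios were -1.14 and -1.35.

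*Nrg1* encodes neuregulin, which binds ErbB3 and ErbB4 and not EGFR. Its level was 26.3 in serum depletion, 31.8 in GCDC and 107 in control. The control array stood alone at the high end, with the treated arrays close together. The fall was 2.02 on the log2 scale in serum depletion and 1.74 in GCDC, from signals at least 38.5 SD above the blanks, and 3.13% and 3.11% of probes had a lower ratio. Its log2 ratio was compared under 13 processing settings, the reported setting included. It stayed between -2.46 and -1.14 in serum depletion and between -2.39 and -1.06 in GCDC, past 2-fold in all. Some of these settings could not change it, as they act on dim probes or on genes with several probes.

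**Figure D2:**
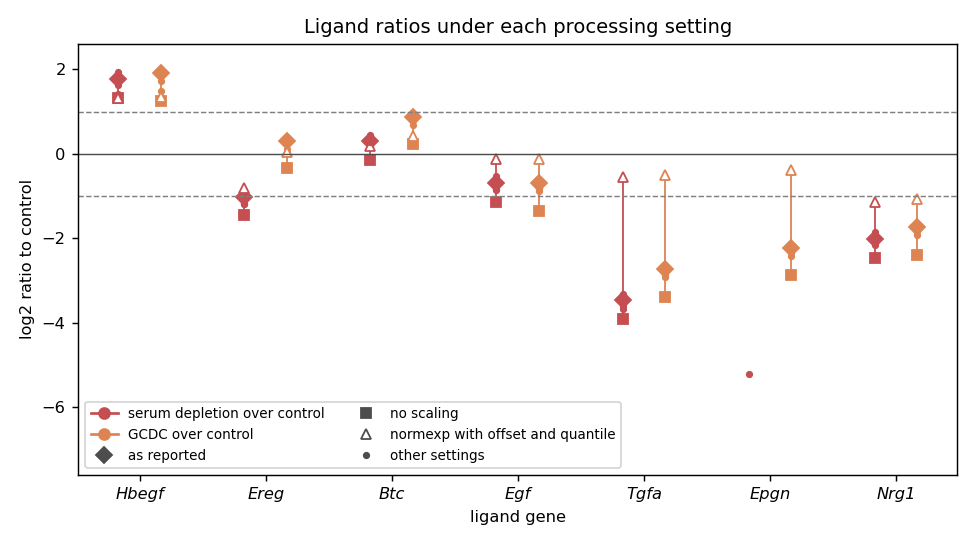
Log2 ratios to control of each ligand under each processing setting, serum depletion to the left of GCDC, with a diamond for the value reported, a square for no scaling, an open triangle for normexp followed by quantile normalization, and dots for the others. *Hbegf* stays above and *Nrg1* below the dashed 2-fold lines throughout, whereas *Tgfa* in both treatments and *Epgn* in GCDC come within them after normexp. For *Epgn* in serum depletion, where it was not valid, the only point is -5.22, without a filter on validity.

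**Figure D3:**
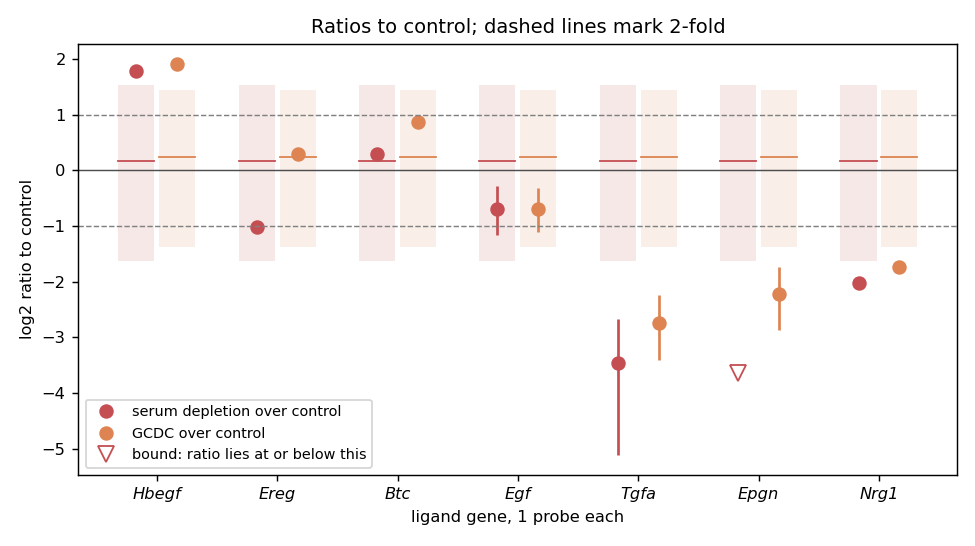
Log2 ratios to control of the 7 ligands, serum depletion to the left of GCDC for each gene. Bars show the range when the signals are moved by 2 SD of the blanks, shaded boxes span the 5th to 95th percentile of all compared probes with their median as a line, dashed lines mark 2-fold, and the open triangle is a bound. *Hbegf* lies above the boxes, and *Tgfa*, *Epgn* and *Nrg1* lie below them in both treatments.

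Each ligand rests on a single probe, so the disagreement between probes of a gene bears on every value above. Among 935 genes with 2 probes valid in serum depletion and control, the log2 ratios of the probes differed by a median of 0.68, and by more than 1 in 34.1% of genes. In GCDC the median was 0.64 over 961 genes, with more than 1 in 29.8%.

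In the genome 4 of the 8 genes lie together on chromosome 5, in the order *Epgn*, *Ereg*, *Areg* and *Btc*, with no other protein-coding gene of the annotation starting between them. The members of this cluster did not move as a group: *Epgn* fell in both treatments, *Ereg* was at -1.01 in serum depletion and 0.30 in GCDC, and *Btc* was at 0.29 and 0.88. On the *Epgn* side the nearest genes are *Mthfd2l*, a mitochondrial folate enzyme, whose log2 ratio was 0.01 for serum depletion and 0.46 for GCDC, and the neutrophil chemokines *Cxcl2*, with 0.44 and -0.27, and *Cxcl1*, with 0.88 and -0.40. On the *Btc* side they are *Parm1*, a mucin-like membrane protein, with 0.98 and 1.44, *Rchy1*, a ubiquitin ligase, with 0.65 and 0.35, and *Odaph*, named for enamel formation, with -0.90 and -0.82. Of these neighbours *Parm1* rose, in GCDC.

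*Tgfa* and *Nrg1* had the largest mean changes among the ligands valid on all 3 arrays, which leaves out *Epgn*. Among named probes valid on all 3 arrays, those nearest to *Tgfa* in their log2 levels were *Mdm4*, *Dhx57* and *Parpbp*, at distances of 0.36 to 0.37. They had log2 ratios from -3.36 to -3.02 in serum depletion and from -2.91 to -2.30 in GCDC. Nearest to *Nrg1* were *Exoc2*, *Usp1* and *Itgav*, at distances of 0.06, 0.10 and 0.17. With 3 arrays such likeness is easily met: 8 probes lay within a distance of 0.5 of *Tgfa* and 51 within that of *Nrg1*, of 17389 compared.

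On the receptor side, *Egfr*, the receptor of most of these ligands, rose in both treatments at both of its probes. The brighter probe had a level of 824 in serum depletion, 530.1 in GCDC and 183 in control, and the other 111, 90.7 and 20.4. The rises were 4.51-fold and 5.44-fold in serum depletion and 2.90-fold and 4.44-fold in GCDC. Both probes thus placed control lowest and serum depletion highest. The brighter probe was at a log2 ratio of 0.97 in GCDC after cyclic loess and 0.89 with no scaling, short of 2-fold. *Erbb2*, the co-receptor with no ligand of its own, had a level of 2.27 in GCDC and 8.64 in control and was not valid in serum depletion. It fell by 1.93 on the log2 scale in GCDC and was at least 6.32-fold lower in serum depletion. After normexp with quantile normalization its GCDC ratio was -0.20. *Erbb4* was within 2-fold at its brighter probe, with levels of 14.1 in serum depletion, 18.4 in GCDC and 15.6 in control. Its dimmer probe was not valid in serum depletion, at 1.98 SD of the blanks above their mean, and was at 2.78 in GCDC and 2.77 in control. Taking the lowest valid level for serum depletion gives a bound of 2.02-fold lower than control. The control signal lay only 5.53 SD above the blanks, and this bound leaves out their scatter. No probe was matched to *Erbb3*.

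Of the other neuregulins, *Nrg4*, an ErbB4 ligand, had a level of 24.6 in serum depletion, 12.6 in GCDC and 12.2 in control. It rose 2.03-fold in serum depletion, at the threshold, and stayed under 2-fold there with a limit of 5 SD, with quantile normalization, at equal 75th percentiles, with no scaling and after normexp. *Nrg2* was at 1.42, 1.67 and 1.84 in the same order, at most 3.69 SD of the blanks above them, and *Nrg3* was not valid on any array.

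Shedding of the ligands depends on ADAM17 and ADAM10, with the iRhoms *Rhbdf1* and *Rhbdf2* and their partner *Frmd8* carrying ADAM17 to the surface and TIMP3 holding it back. With the brighter probe standing for a gene, 3 of 9 genes rose in serum depletion (*Adam17*, *Adam15* and *Timp3*), these and *Adam12* rose in GCDC, and none fell. The median log2 ratios were 0.53 and 0.85, beside 0.16 and 0.23 over all probes. Of all probes, 13.4% rose and 11.3% fell in serum depletion, and 13% rose and 8.77% fell in GCDC. *Timp3* was at 2245 in serum depletion, 1031 in GCDC and 486 in control, so the inhibitor was highest in serum depletion. *Adam15* was at 136, 142 and 28.2. The probes of *Adam17* went opposite ways: the brighter was at 590, 448 and 162, and the dimmer at 6.70, 9.77 and 76.2. *Adam12* had log2 ratios of 0.94 and 1.13 at the brighter probe and -1.42 and -1.19 at the other. No direction can be given for *Adam17* and *Adam12*, so the counts above depend on the probe that stands for them. *Adam10* was within 2-fold at its brighter probe and at 1.31 and 1.20 at the other, and *Rhbdf1*, *Rhbdf2* and *Frmd8* lay between -0.61 and 0.53.

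Of 18 genes of receptor turnover and feedback, 1 rose and 6 fell in serum depletion, and 1 rose and 3 fell in GCDC. The median log2 ratios were -0.59 and -0.22. Over all probes the medians were 0.16 and 0.23. Of all probes, 13.4% rose and 11.3% fell in serum depletion, and 13% rose and 8.77% fell in GCDC. *Socs5*, which directs EGFR to degradation, had log2 ratios of -2.73 and -2.26. *Rnf41*, the ubiquitin ligase of ErbB3, had -1.86 and -1.89, and *Lrig2*, a transmembrane protein of the LRIG family, -1.76 and -1.41. *Sh3kbp1*, an adaptor of receptor endocytosis, was the gene that rose, at 1.09 and 1.44, but its control level of 1.40 lay close to the blanks. At its dimmer probe *Spred1* had -2.28 and -2.35, and *Lrig3* was at least 4.41-fold lower in serum depletion and at -1.94 in GCDC. Their brighter probes, which count here, stayed within 2-fold. Of 11 genes of the RAS-ERK relay none rose and 3 fell in each treatment, with medians of -0.72 and -0.06. These were the phosphatase *Ptpn11* (-2.48 and -1.98), *Nras* (-2.15 and -1.47) and the adaptor *Shc1* (-1.25 and -1.06).

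**Figure D4:**
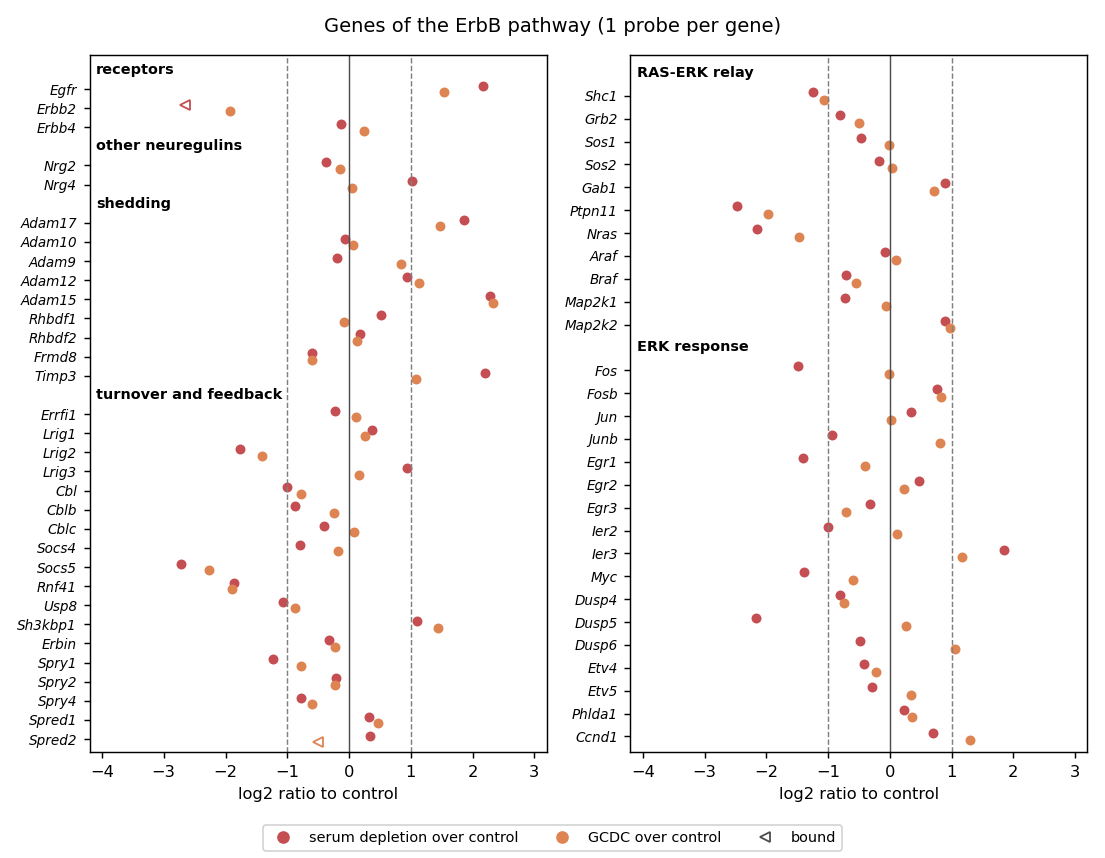
Log2 ratios to control of the measured genes of the ErbB pathway by list, with serum depletion drawn above GCDC for each gene, dashed lines at 2-fold and open triangles for bounds. *Egfr*, *Adam15* and *Timp3* lie to the right of 2-fold in both treatments, and *Socs5*, *Rnf41*, *Ptpn11* and *Nras* lie to the left.

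Genes that respond to ERK, the far end of the pathway, differed between the treated arrays. In serum depletion 1 of 17 rose and 5 fell, and in GCDC 3 rose and none fell, with median log2 ratios of -0.42 and 0.22. Over all probes the medians were 0.16 and 0.23, so the GCDC median of these genes was near that of the array. Of all probes, 13.4% rose and 11.3% fell in serum depletion, and 13% rose and 8.77% fell in GCDC. *Dusp5*, a phosphatase of ERK, was at a level of 42.1 in serum depletion, 225 in GCDC and 188 in control. *Myc* was at 152, 265 and 399, the stress-response gene *Ier3* at 9142, 5665 and 2531, and the cyclin *Ccnd1* at 1813, 2761 and 1123. Between the treated arrays, 6 of 17 lay more than 2-fold lower in serum depletion than in GCDC (*Dusp5*, *Junb*, *Dusp6*, *Fos*, *Ier2* and *Egr1*) and none higher. Over all probes 3.35% lay lower and 2.70% higher by as much. The log2 ratios of serum depletion over GCDC of *Egr1* (-1.01) and *Ier2* (-1.12) were close to the threshold. Without scaling between arrays both come within 2-fold. *Junb*, *Dusp6*, *Fos*, *Ier2* and *Egr1* fall outside the rule for named genes and were chosen after their values were seen.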

How the data were processed

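The authors hybridised Cy5-labelled RNA of each condition to a 3D-Gene 24k oligo chip and deposited the scanner output, the median intensity of 27456 spots per array at 635 nm before any background subtraction. A second deposited table gives processed intensity, in which the mean of the blank spots is subtracted, probes not above 2 SD are left empty and each array is scaled to a median of 25. Values here were recomputed from the scanner output with the mean and SD of the blanks left after trimming below the 5th and above the 95th percentile (2463, 2464 and 2463 of 2736 blanks in serum depletion, GCDC and control). The valid probes were those of the deposited table at all 23473 probes, and that table served as an alternative. The blank means were 58.7, 52.5 and 55.7, the SDs 0.815, 0.611 and 0.813, and the scaling factors 0.838, 0.964 and 0.615. The intensity above the blanks limits the precision of dim probes.

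A ratio is a treated level over the control level where both are valid. Where 1 array was not valid, its lowest valid level (1.37, 1.18 and 1.00) gave a bound, and counts past 2-fold include bounds. With 1 array per condition no test was made. Probes were named through the platform annotation and gene identifiers of RefSeq (20690 probes with 1 symbol). All ligand probes are given, every receptor and other neuregulin, and in each other pathway list the 4 genes with the largest mean absolute log2 ratio among those past 2-fold in either treatment, the brightest probe standing for a gene. For the 2 ligands with the largest mean absolute log2 ratio among those valid on all 3 arrays, which leaves out *Epgn*, the 3 probes nearest in log2 levels are named, and of the genome cluster the genes between its members and 3 on either side. The ligands, lists and rules were chosen with earlier results of these data known. List genes with no matched probe are not analysed here.

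The alternatives were other limits of validity, 5 other scalings between arrays, the mean of all blanks, quantile normalization after normexp (offset 50), the table as deposited, 1 probe per gene, and thresholds of 1.5-fold and 4-fold. The scaling, ratio and call steps were tested on simulated data. Recovery of known folds was checked there for brighter probes in the serum depletion ratio, and not for dim probes or bounds. limma 3.58.1 was run in R 4.3.3, and all else in Python 3.11.15 (numpy 2.4.6, pandas 2.3.3, matplotlib 3.10.9).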

Additional observations from a re-analysis of the deposited data

Results flagged for a closer look

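For 6 genes of the ligand and pathway lists the treated arrays lay on opposite sides of control and more than 2-fold apart, which set them aside for a closer look. These differences were not tested, as each treatment has 1 array. The log2 ratio of serum depletion over GCDC was -1.31 for *Ereg* and -1.04 for *Adam9*. It was -1.75 for *Junb*, -1.12 for *Ier2*, -2.42 for *Dusp5* and -1.53 for *Dusp6*. Without scaling between arrays the GCDC ratio of *Ereg* was -0.35, on the same side of control as serum depletion, and after normexp with quantile normalization the ratio of serum depletion over GCDC was -0.85. For the other 5 genes no other setting was computed, but no scaling moves all ratios within a treatment alike. *Ier2* (0.12) and *Dusp5* (0.26) lay less far above control in GCDC than *Ereg* (0.30). Without scaling they too therefore fall below control in GCDC. The ratio of serum depletion over GCDC was then -1.11 for *Ereg*. The same shift brings *Adam9* and *Ier2* within 2-fold between the treated arrays. As reported, in all 6 the serum-depleted array was below control and the GCDC array above it. For *Junb* the log2 ratios to control were -0.93 in serum depletion and 0.81 in GCDC, and for *Dusp6* -0.48 and 1.05.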

How the results depend on the processing

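The ligand counts of 5 past 2-fold in serum depletion, 4 in GCDC and 4 the same way in both stayed within 1.5 times under all alternatives but the following. With normexp, its offset and quantile normalization together they were 2, 2 and 2 (*Hbegf* and *Nrg1*), and an added offset by construction shrinks the ratios of dim probes. At a threshold of 4-fold they were 3, 2 and 2. The median log2 ratio of the ligands in GCDC was -1.35 with no scaling, which moves all ratios within a treatment alike and puts the median over all probes at -0.28 in serum depletion and -0.41 in GCDC. The median was closer to 0 in other settings. Normexp with quantile normalization gave -0.33 for serum depletion and -0.12 for GCDC, against -0.85 and -0.70 as reported, and it was -0.20 in GCDC over probes valid on all 3 arrays, where *Epgn* drops out. *Hbegf* stayed above 2-fold and *Nrg1* below it in both treatments under all 13 settings of processing, the reported setting included. No filter on validity, probes valid on all 3 arrays and 1 probe per gene could not change these ratios. The deposited table holds nearly the same values. No ratio past 2-fold of a ligand, receptor or other neuregulin changed its direction. With 1 array per condition no array could be left out. No paired analysis was possible because each group has 1 sample.

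Over the settings in which each was compared, *Tgfa* ranged from -3.91 to -0.55 in serum depletion and *Epgn* from -2.87 to -0.38 in GCDC. Signal over background limits *Tgfa*, *Epgn* and *Egf* most, whose treated signals lay at most 11.1 SD of the blanks above them.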
